A study of Mus musculus with 45 samples.

Results

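The genes described here are 10 genes of the MHC class II antigen presentation pathway, measured by bulk RNA sequencing in mouse microglia and brain tissue. They were taken by name: H2-Aa, H2-Ab1, H2-Eb1, Cd74, Ciita, H2-DMa, H2-DMb1, H2-DMb2, H2-Oa and Ifi30. Of these 10 genes, out of 56039 gene identifiers over the 3 count tables, 10 had a row in the slice microglia table, 10 in the adult microglia table and 9 in the brain tissue table, where Ifi30 was not analysed.

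MHC class II molecules are pairs of an alpha and a beta chain that carry peptides from the endosomal pathway to the cell surface, where CD4+ T cells read them. The invariant chain guards the empty groove until endosomal proteases trim it to a short fragment, and the DM heterodimer then exchanges that fragment for a peptide, a step that the DO heterodimer restrains. Transcription of these genes rests on a shared promoter module and on the coactivator CIITA, which interferon gamma induces, and resting microglia are known for low class II expression that rises in inflammation and disease.

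All 45 samples came from C57BL/6 mice, with no engineered allele named, and fell into 7 groups. Slice microglia were sorted as live CD11b high, CD45 intermediate cells from coronal brain slices of neonatal mice that had been cultured for 2 weeks and then given medium only (9 samples), TNF at 50 ng/mL (11 samples) or GM-CSF at 20 ng/mL (9 samples) for 24 h. Slices were pooled to make a sample, so a sample is not 1 animal, and the cytokine reached every cell type that the slice held. Adult microglia passed the same gate and came from mice of 10 to 15 weeks, 24 h after LPS at 1 mg/kg (4 samples) or PBS (4 samples). Undissociated brain tissue came from mice that were also 10 to 15 weeks old, 4 of them 24 h after LPS at 1 mg/kg and 4 untreated. Its controls, unlike those of the adult microglia, had thus received no injection. In both experiments LPS was given intraperitoneally. The titles of the slice samples also carry the codes 1A, 1B, 2A and 2B, whose meaning the labels do not give. The study describes the slice data as pooled from 4 independent experiments without saying which library came from which. Whether the codes stand for those experiments is not stated, and p-values measure the spread between these samples.

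Total counts ran from 5973364 to 9165485 in the slice libraries, from 11391564 to 14216005 in those of adult microglia and from 8199863 to 10368578 in those of brain. Levels are given as CPM, counts per 1e+06 counts of the total count scaled by a TMM factor, and levels of different genes are compared only as CPM per kilobase of exon. A gene was called changed at a Benjamini-Hochberg adjusted p under 0.05 in edgeR's quasi-likelihood test together with a fold change over 1.5, and a log2 fold change is followed by its standard error (SE). The summed CPM of 10 microglial identity genes had a median of 26040 in medium, 12290 with TNF and 16870 with GM-CSF, and of 63240 and 42590 in adult microglia after PBS and LPS. In such bulk samples fewer cells of a type and less RNA per cell cannot be told apart, and the share of that fall in the results on the class II genes was not tested.

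In the mouse genome build GRCm38, as annotated by GENCODE M21, 7 of the 10 genes lie within the class II region of chromosome 17. In order they are H2-Oa (chr17:34092340-34095234, plus strand), H2-DMa (chr17:34119541-34139101, plus), H2-DMb2 (chr17:34143307-34151555, plus), H2-DMb1 (chr17:34153072-34160230, plus), H2-Ab1 (chr17:34257689-34269419, plus), H2-Aa (chr17:34282744-34287823, minus) and H2-Eb1 (chr17:34305867-34316674, plus). Ciita, Cd74 and Ifi30 lie on other chromosomes.

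Promoters of H2-Oa, H2-DMb2, H2-DMb1, H2-Aa and H2-Eb1 are shown because genes of this module did not respond as 1 unit below. H2-DMb2 was called with GM-CSF, and its neighbour and near copy H2-DMb1 was not. RefSeq promoter windows of GRCm38.p6, 250 bases before to 50 bases after the start, matched 7 of the 10 genes. H2-Ab1, Cd74 and Ciita had no window. H2-DMa had ATTGG only at 198 bases before 1 of its starts, too far upstream to be included below. Class II promoters are known for an X box, which the RFX complex binds, a cyclic AMP response element-like X2 box beside it, and a Y box with a CCAAT sequence that NF-Y binds. The stretches below run 5′ to 3′ on the strand of the gene, and the capitals mark the CCAAT sequence, which reads ATTGG on this strand, and the letters AACNGATG or TGACGTCA. Each stretch is the 55 bases that end in ATTGG, except for H2-DMb1, whose stretch lies mostly in an exon of the M21 model. For H2-DMb1 only 30 bases from within that stretch are shown, starting at AACNGATG and without its ATTGG.
H2-Oa, chr17:34092286-34092340, plus strand: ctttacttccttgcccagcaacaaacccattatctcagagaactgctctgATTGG
H2-DMb2, chr17:34145109-34145163, plus strand: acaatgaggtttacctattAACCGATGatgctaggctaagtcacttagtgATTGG
H2-DMb1, chr17:34153099-34153128, plus strand: AACTGATGatgctaggctgattcactcagt
H2-Aa, chr17:34287867-34287921, minus strand: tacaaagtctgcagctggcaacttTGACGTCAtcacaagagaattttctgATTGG
H2-Eb1, chr17:34305758-34305812, plus strand: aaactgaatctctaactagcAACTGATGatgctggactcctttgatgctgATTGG

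ATTGG was found in the windows of H2-Oa, H2-DMb2, H2-DMb1, H2-Aa and H2-Eb1, at 1 of the 2 starts of H2-DMa, and not in that of Ifi30, and 37.4% of all 32851 promoters of that length hold it on either strand. The X box consensus, searched with its fixed positions only, was in the window of H2-DMb1 alone among the 7 genes and in 1.25% of all promoters. The string AACNGATG was in 2.32% and TGACGTCA in 1.79% of all promoters, and both strings were chosen after the sequences were seen. Over these 55 bases, which for H2-DMb1 include those not shown, H2-DMb1 and H2-DMb2 were equal at 50 positions, against 15 to 27 for the other pairs of the 5 genes. The string TTCNNNGAA was in the H2-DMb2 window alone among the 7 genes and in 8.3% of all promoters. A match of letters is a description and not a binding site.

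In slice microglia given medium only, the class II genes spanned more than 4 orders of magnitude, with Ciita and its 8 counts at the lower end. Per kilobase, Ifi30, the thiol reductase that opens disulfide bonds of antigens in the lysosome, stood highest with a mean of 171 CPM per kb. It was followed by H2-DMb1, a beta chain of DM, at 64.1, H2-Ab1, the beta chain of I-A, at 53.4, Cd74, the invariant chain, at 51.5, and H2-DMa, the alpha chain of DM, at 42.5 CPM per kb. H2-Oa, the alpha chain of DO, and H2-DMb2, the other DM beta chain, were about 10 times lower, at 4.44 and 4.08 CPM per kb. H2-Eb1, the beta chain of I-E, H2-Aa, the alpha chain of I-A, and Ciita came last at 0.496, 0.332 and 0.0136 CPM per kb. With SDs of 9.67, 15.9, 13.2 and 5.72 CPM per kb over the 9 medium libraries, H2-DMb1, H2-Ab1, Cd74 and H2-DMa were each within the spread of their neighbour in that order, as were H2-Oa and H2-DMb2 with SDs of 1.86 and 1.65. The last 3 genes held 63, 79 and 8 counts over all medium libraries.

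**Figure D1:**
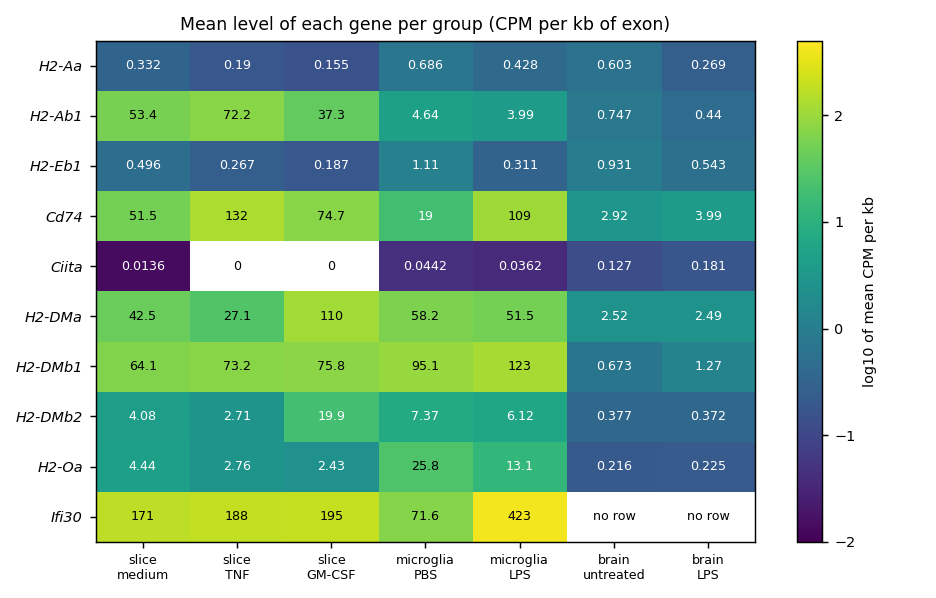
Mean level of each gene in each of the 7 groups, as CPM per kilobase of exon, with genes in rows, groups in columns and a logarithmic colour scale. The I-A beta chain H2-Ab1 stands at 53.4 CPM per kb in medium-treated slice microglia and the I-A alpha chain H2-Aa at 0.332, and Ciita is the lowest gene in every microglial group.

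The classical chains were thus read very unequally. H2-Ab1 had 9346 counts in the medium libraries where its partner H2-Aa had 79, and in adult microglia after PBS the gap was smaller, with 4.64 CPM per kb for H2-Ab1 and 0.686 for H2-Aa. The M21 model of H2-Ab1 starts 5538 bases before the RefSeq start, but only 167 of its 2568 exonic bases lie in that upstream part. Which part of the gene the counts fell in was not tested.

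H2-Aa, H2-Eb1 and Ciita stayed at or near 0 in slice microglia under each treatment and did not pass the filter on low counts. H2-Aa ran from 0 to 4.18 CPM in medium with a median of 0.819, and it summed to 55 counts over the TNF libraries and 40 over the GM-CSF libraries, with 3 libraries at 0 in each group. H2-Eb1 summed to 37 counts with TNF and 24 with GM-CSF, and 5 TNF and 2 GM-CSF libraries had none. Ciita (chr16:10480059-10528418, plus strand), the coactivator, had 8 counts in medium, all in replicate 5 (1.165 CPM), and 0 in the 11 TNF and 9 GM-CSF libraries, where a count of 0 allows up to 0.0373 and 0.0463 CPM over the summed libraries of each group. Such limits cover counting error only, and a fall or a small rise in these 3 genes could not be measured at this depth. With no filter on low counts, only Ciita was called among them, lower with TNF, and that call rests on the 8 counts of medium replicate 5.

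With TNF, an inflammatory cytokine that activates NF-kappaB, the invariant chain Cd74 rose and the DM alpha chain H2-DMa fell. Cd74 went up 2.55-fold and H2-DMa was 1.57-fold lower than in medium. The other measured genes did not pass the call: H2-Ab1 was shifted upwards within the fold limit, and H2-DMb1, H2-DMb2, H2-Oa and Ifi30 had adjusted p-values of 0.0597 to 0.0904.

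Cd74 (chr18:60803848-60812652, plus strand) lay between 54.9 and 124 CPM in medium, with a median of 91.7, and between 136 and 324 CPM with TNF, with a median of 217. The groups did not overlap, and 11 of 11 TNF libraries were above every medium library. The log2 fold change was 1.35 (SE 0.149, adjusted p = 2.632e-09, edgeR's quasi-likelihood test). H2-DMa lay between 122 and 175 CPM in medium, with a median of 140.7, and between 70.9 and 109 CPM with TNF, with a median of 91.5. Here too the groups stood apart, with 11 of 11 TNF libraries below every medium library, and the log2 fold change was -0.65 (SE 0.0919, adjusted p = 3.873e-07).

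H2-Ab1 ran from 79.7 to 207 CPM in medium and from 123 to 239.9 CPM with TNF, with medians of 146 and 183. Those groups overlapped over most of their range, with a log2 difference of 0.43 (SE 0.174, adjusted p = 0.0463) that stayed under the fold limit. H2-DMb1 averaged 108 ± 16.3 CPM in medium (SD, n = 9) and 123 ± 17.6 CPM with TNF (SD, n = 11). Ifi30 (chr8:70762774-70766663, minus strand) averaged 168 ± 13.8 and 185 ± 14.6 CPM, and it shares 85 exonic bases with 6330537M06Rik on the opposite strand. The 2 genes of lower level had negative differences that missed the threshold, with log2 values of -0.60 (SE 0.255) for H2-DMb2 and -0.68 (SE 0.293) for H2-Oa. Both lay close to the threshold: H2-DMb2 was called without medium replicate 1 or 6 or TNF replicate 6, 7, 9 or 11 (log2 -0.65 to -0.74), and H2-Oa without medium replicate 8 or 9 or TNF replicate 6 or 7 (log2 -0.75 to -0.80).

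Of the 10 genes, 7 were tested. With TNF 1 of these 7 was thus called higher, against 9.1% of the 11313 genes tested, and 1 was called lower, against 11.7%. The median log2 difference over the 7 genes that passed the filter was 0.14, and over all genes tested it was -0.03. H2-DMa shares 360 exonic bases with Brd2 on the opposite strand, and whether the counting used strand is not given, so reads of that stretch cannot be assigned. Brd2 itself had a log2 difference of 0.31 with TNF (SE 0.128, adjusted p = 0.0519) and of -0.06 with GM-CSF (SE 0.134, adjusted p = 0.805).

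With GM-CSF, the growth factor that drives myeloid cells towards a macrophage and dendritic cell program, 2 of the 3 DM genes rose. H2-DMa went up 2.60-fold and H2-DMb2 4.88-fold, while the neighbouring beta chain H2-DMb1 was not called. H2-Oa, the alpha chain of the DM inhibitor DO, was called lower with overlapping groups. H2-Ab1 and Cd74 had adjusted p-values under 0.05 with changes under the fold limit, in opposite directions.

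**Figure D2:**
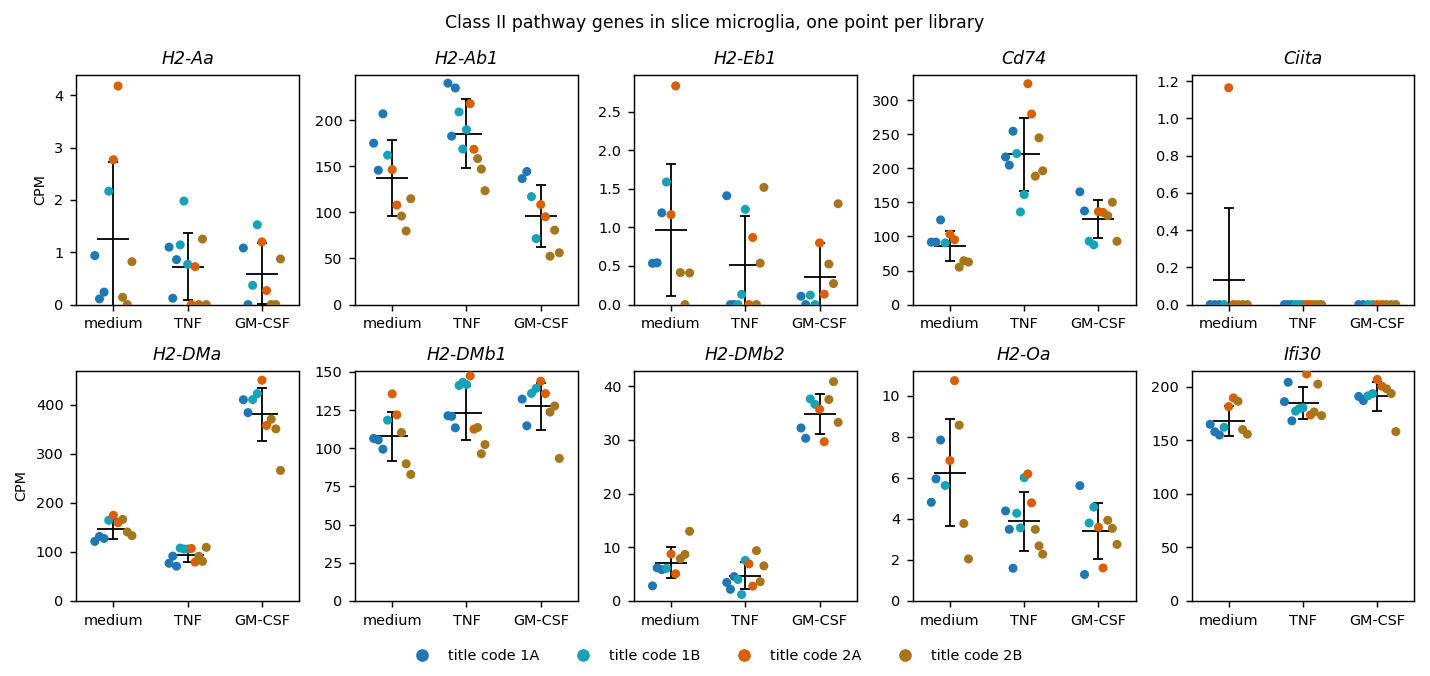
Level of each gene in each of the 29 slice microglia libraries, in CPM on the vertical axis, by treatment on the horizontal axis, with points coloured by title code and bars for the mean and SD. All 9 GM-CSF libraries lie above every medium and every TNF library for H2-DMa and H2-DMb2, and all 11 TNF libraries lie above every medium library for Cd74.

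H2-DMa ran from 266 to 450.3 CPM with GM-CSF, with a median of 384, so its lowest GM-CSF library was above the highest medium library at 175 CPM. The log2 fold change was 1.38 (SE 0.0972, adjusted p = 4.184e-13). H2-DMb2 ran from 2.81 to 13 CPM in medium, with a median of 6.17, and from 29.7 to 40.8 CPM with GM-CSF, with a median of 35.7. These groups were also apart, with 9 of 9 GM-CSF libraries above all medium libraries, and the log2 fold change was 2.29 (SE 0.261, adjusted p = 1.819e-08).

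H2-DMb1 averaged 127 ± 15.5 CPM with GM-CSF (SD, n = 9), a log2 difference of 0.24 (SE 0.0943, adjusted p = 0.0570) from medium. H2-DMb2 therefore supplied a larger part of the DM beta level, taken per kilobase: 6.17% ± 3.08 in medium, 3.60% ± 1.90 with TNF and 20.97% ± 2.52 with GM-CSF (SD, n = 9, 11 and 9). The highest medium library was at 13.1% and the lowest GM-CSF library at 17.4%. The 2 transcripts are close copies: 14.6% of the 75-base stretches of H2-DMb2 also occur in H2-DMb1, and how the authors' counting treated reads of such stretches was not tested.

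H2-Oa averaged 6.25 ± 2.62 CPM in medium and 3.41 ± 1.36 CPM with GM-CSF (SD, n = 9 each), and the groups overlapped between 2.05 and 5.62 CPM. Its log2 fold change was -0.87 (SE 0.311, adjusted p = 0.0357), and this call was lost in 13 of 41 alternative settings. These included leaving out GM-CSF replicate 2, 6 or 9 or medium replicate 3, 5, 6 or 7, which gave log2 values of -0.73 to -0.85 with adjusted p-values of 0.0501 to 0.0871. H2-Oa shares 321 exonic bases with BC051537 on the opposite strand. Ifi30 averaged 191 ± 13.7 CPM, a log2 difference of 0.19 (SE 0.0607, adjusted p = 0.0217) that was under the fold limit.

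H2-Ab1 ran from 52.5 to 144 CPM with GM-CSF, with a median of 95.1, a log2 difference of -0.52 (SE 0.183, adjusted p = 0.0356) from medium. Cd74 ran from 87.7 to 166 CPM, with a median of 135, a log2 difference of 0.54 (SE 0.153, adjusted p = 0.00772). Both overlapped medium and were under the fold limit. H2-Ab1 passed it without GM-CSF replicate 1 or 2 or medium replicate 8 (log2 -0.59 to -0.61), and Cd74 without GM-CSF replicate 4 or medium replicate 3 (log2 0.59 and 0.62), with total-count scaling (0.64) or with the title code as a term (0.60). In all, 2 of the 7 tested among the 10 genes were called higher with GM-CSF, against 4.84% of all genes tested, and 1 lower, against 5.96%. The median log2 difference was 0.24 over the 7 genes that passed the filter and -0.04 over all genes tested.

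Set directly against each other, TNF and GM-CSF split the class II genes into 3 kinds. The I-A beta chain H2-Ab1 and the invariant chain Cd74 were higher with TNF. The DM genes H2-DMa and H2-DMb2 were higher with GM-CSF, and H2-DMb1, H2-Oa and Ifi30 were not told apart. Both cytokine groups had been compared with the same 9 medium libraries, so the direct contrast is the test of the difference between them.

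**Figure D3:**
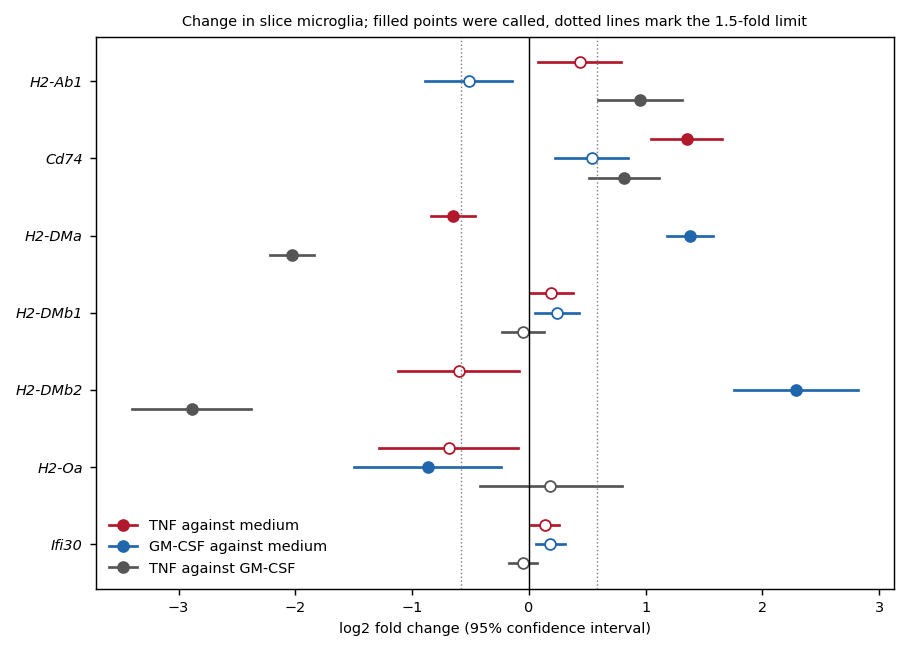
Log2 fold change of each tested gene on the horizontal axis, with its 95% confidence interval, for TNF against medium, GM-CSF against medium and TNF against GM-CSF, where filled points were called and dotted lines mark the 1.5-fold limit. In the TNF against GM-CSF contrast H2-Ab1 and Cd74 lie at 0.95 and 0.81, and H2-DMa and H2-DMb2 at -2.03 and -2.89.

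H2-Ab1 was 1.93-fold higher with TNF than with GM-CSF (log2 0.95, SE 0.177, adjusted p = 6.416e-05), and 10 of 11 TNF libraries were above the highest GM-CSF library at 144 CPM. Cd74 was 1.76-fold higher (log2 0.81, SE 0.146, adjusted p = 2.983e-05), and 9 of 11 TNF libraries were above the highest GM-CSF library at 166 CPM. The gap in H2-Ab1 joined a TNF group shifted upwards from medium to a GM-CSF group shifted downwards. That in Cd74 lay between groups that were both shifted upwards.

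H2-DMa was 4.08-fold lower with TNF than with GM-CSF (log2 -2.03, SE 0.0929, adjusted p = 5.039e-19), and H2-DMb2 was 7.39-fold lower (log2 -2.89, SE 0.252, adjusted p = 1.306e-11). No library of one group reached the other in either gene. For the 3 remaining genes the 95% confidence interval of the log2 difference ran from -0.23 to 0.13 for H2-DMb1 (adjusted p = 0.728), from -0.42 to 0.79 for H2-Oa (adjusted p = 0.692) and from -0.17 to 0.07 for Ifi30 (adjusted p = 0.575). The interval of H2-Oa is wide enough to hold a change past the fold limit in favour of TNF.

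Of the 7 tested among the 10 genes, 2 were called higher and 2 lower in this contrast, against 8.25% and 7.96% of all genes tested. The median over the 7 genes that passed the filter was -0.05 and that over all genes was -0.02. Scaling to total counts in place of TMM moved the median of all genes to -0.19 and the higher share of all calls from 50.9% to 31.4%, and the 4 calls stood, at log2 values of 0.78 for H2-Ab1, 0.64 for Cd74, -2.20 for H2-DMa and -3.06 for H2-DMb2. The same scaling took the higher share of all calls from 44.8% to 63.9% for GM-CSF against medium.

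The balance between the genes shifted with the treatment. The level of H2-DMa per kilobase was 0.669 of that of H2-DMb1 in medium on average, 0.373 of it with TNF and 1.46 times it with GM-CSF, with ranges over libraries of 0.557 to 0.784, 0.305 to 0.521 and 1.29 to 1.63. Cd74 per H2-Ab1 averaged 0.991 in medium, 1.87 with TNF and 2.19 with GM-CSF, and the ranges of the cytokine groups overlapped widely, at 1.23 to 2.55 and 1.22 to 3.81. The summed level of H2-Aa, H2-Ab1, H2-Eb1 and Cd74 was 226 ± 61.0 CPM in medium, 407 ± 74.0 CPM with TNF and 222 ± 51.6 CPM with GM-CSF (SD, n = 9, 11 and 9).

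Within a treatment the libraries also differed by title code. H2-Ab1 averaged 176 CPM under code 1A and 96.8 CPM under code 2B in medium, 219 and 143 CPM with TNF, and 140.3 and 63.1 CPM with GM-CSF. Codes 1A and 1B alone gave log2 fold changes of TNF against GM-CSF of 0.80 for H2-Ab1, 0.72 for Cd74, -2.12 for H2-DMa and -3.17 for H2-DMb2. Codes 2A and 2B alone gave 1.04, 0.92, -1.96 and -2.62 for the same genes, and all 4 calls were made in both sets. Against medium, TNF gave log2 values for Cd74 of 1.01 and 1.70 in the 2 sets of codes, both called, and for H2-DMa of -0.54, under the fold limit, and -0.73, called. For Cd74, GM-CSF gave log2 values of 0.29, with an adjusted p of 0.376, and 0.78, which was called. GM-CSF gave 1.58 and 1.23 for H2-DMa and 2.71 and 2.04 for H2-DMb2, all called, whereas H2-Oa, at -0.66 and -1.03, was called in neither.

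After the treatment means were subtracted, log2 levels of H2-DMa and H2-DMb1 moved together over the 29 libraries, with Pearson's r of 0.69, and those of H2-Ab1 and Cd74 with r of 0.51. H2-Ab1 with Cd74 did not stand out by its r alone. Other pairs had r of 0.59 for H2-DMb1 with H2-Oa, 0.55 for H2-DMb1 with Ifi30 and 0.51 for H2-DMa with Ifi30. The r of H2-DMa with H2-DMb1 was the highest among pairs of the tested genes. H2-DMa and H2-DMb2, both higher with GM-CSF, had an r of 0.19. These values describe libraries that also share depth and title code, and subtracting the means of the codes as well left r at 0.77 for H2-DMa with H2-DMb1, 0.70 for H2-DMb1 with Ifi30 and 0.49 for H2-Ab1 with Cd74.

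**Figure D4:**
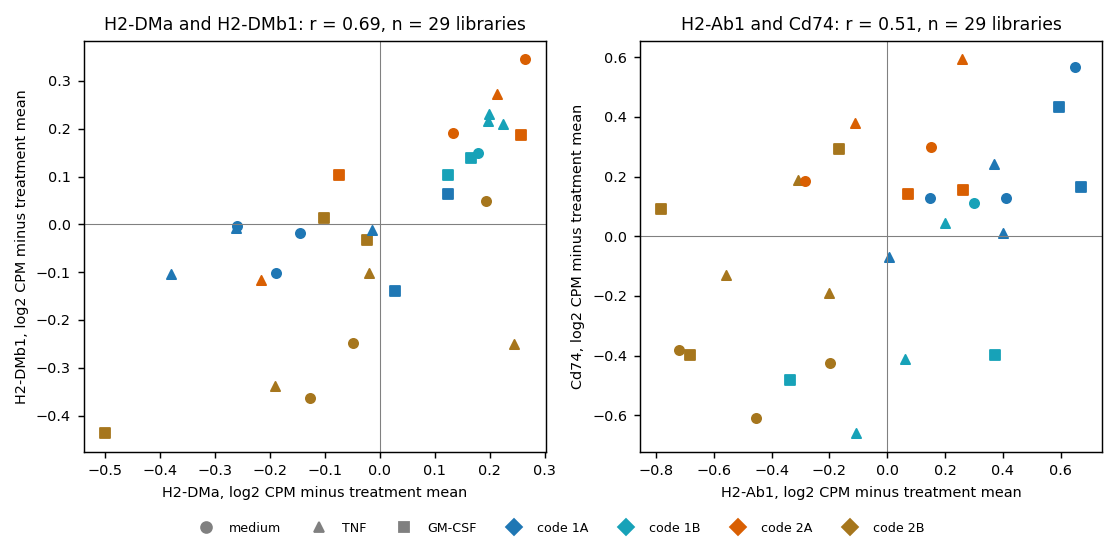
Log2 level of H2-DMb1 against H2-DMa and of Cd74 against H2-Ab1 in the 29 slice libraries after subtraction of each treatment's mean. Both axes are in log2 units, the colour of a point gives its title code and the shape its treatment. The pairs have Pearson's r of 0.69 and 0.51.

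Other genes of the pathway were taken from lists that hold none of the 10. In the interferon gamma axis TNF raised Irf1, an interferon-induced transcription factor (log2 1.35) and Socs1, a feedback inhibitor (1.68), and lowered the receptor chain Ifngr1 (-0.73). GM-CSF lowered Ifngr1 (-0.78) and Irf1 (-0.78). Directly compared, Irf1 (2.13), Socs1 (1.73), the receptor chain Ifngr2 (0.61) and the kinase Jak2 (0.64) were higher with TNF. Ifng itself had 3 counts over the TNF libraries and none in the other slice groups.

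Among the 7 tested factors of the class II promoter module none was called by edgeR with either cytokine against medium, with 1 of them (Rfxap) at an unadjusted p under 0.05 in each contrast, and only Rfx5, a subunit of the RFX complex, differed between the cytokines (log2 0.94 higher with TNF, adjusted p = 0.00529). Of 6 proteases that act on antigens or the invariant chain, TNF raised Sppl2a, the intramembrane protease that clears the last invariant chain fragment (0.88), and lowered Ctsd (-0.87) and Lgmn (-0.96), and GM-CSF lowered Ctsb (-0.83) and Ctsd (-0.81). March1, a ubiquitin ligase that removes class II from the surface, was 0.72 higher with TNF on the log2 scale and was not called with GM-CSF. Of the 2 genes whose proteins pair with CD74 at the surface, TNF raised both Mif (0.80) and Cd44 (1.35). With GM-CSF, Mif (0.24, adjusted p = 0.00167) and Cd44 (0.53, adjusted p = 5.674e-05) passed the p threshold with changes under the fold limit.

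H2-Ob, the beta chain that DO forms with H2-Oa, fell with both cytokines. It averaged 36.6 CPM in medium, 14.5 CPM with TNF (log2 -1.33, adjusted p = 1.432e-06) and 20.3 CPM with GM-CSF (log2 -0.85, adjusted p = 0.0024), and the cytokines were not told apart. H2-Eb2 and H2-Ea, which is annotated as a polymorphic pseudogene, were at or near 0.

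Markers of other cells that use class II were measured beside these genes. Border macrophage genes summed to medians of 649, 840.4 and 572 CPM in medium, TNF and GM-CSF, and of 7 tested TNF raised Siglec1 (log2 2.25) and lowered Mrc1 (-1.70) and Lyve1 (-3.15), while GM-CSF lowered Ms4a7 (-1.80). Monocyte genes summed to medians of 962, 2652 and 2142 CPM, nearly all of it Fn1, which rose with TNF (1.13) and GM-CSF (1.00). S100a4, the other monocyte gene tested, was lower with TNF (-0.97), Ly6c2 was at 0 in medium, and Plac8 was at 0 in medium and with GM-CSF. Dendritic cell genes summed to medians of 54.9, 71.3 and 47.6 CPM, and 0 of 2 tested were called by edgeR with either cytokine against medium, with an unadjusted p under 0.05 only for Itgax with TNF (log2 0.46, p = 0.0268 before adjustment). In that list Cd209a was at 0 in each group, Flt3 in medium, Clec9a with TNF and Ccr7 with GM-CSF. The B cell list had medians of 265, 72.9 and 79.6, with Pax5 at 0 and Ighm called lower with both cytokines, beside the fall of H2-Ob. Their part in the class II results was not tested.

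In adult microglia, LPS given to the animal raised Cd74 and Ifi30 and lowered H2-Eb1 and H2-Oa. Cd74 rose 5.72-fold and Ifi30 5.90-fold, and Ifi30 had the third smallest p-value of the 12987 genes tested. Ciita, H2-Aa, H2-Ab1, H2-DMa and H2-DMb2 were not called, and H2-DMb1 changed by less than the fold limit.

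Cd74 was at 36.9, 35.4, 28.5 and 26.9 CPM in the PBS libraries, and at 248, 129.5, 166 and 187 CPM in the LPS libraries. The lowest LPS library was above every PBS library, and the log2 fold change was 2.52 (SE 0.205, adjusted p = 1.702e-05). Ifi30 was at 67.1, 76.0, 66.4 and 71.7 CPM with PBS and at 453, 382, 408 and 417 CPM with LPS, which is 2.56 higher on the log2 scale (SE 0.0769, adjusted p = 1.722e-09). Again no library of one group reached the other.

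H2-Oa was at 36.6, 38.7, 34.7 and 35.2 CPM with PBS and at 23.9, 15.3, 18.2 and 16.2 CPM with LPS, and its log2 fold change was -0.98 (SE 0.129, adjusted p = 6.84e-05). H2-Eb1 was at 2.72, 1.94, 2.33 and 1.66 CPM with PBS and at 0.583, 0.257, 0.843 and 0.735 CPM with LPS, and its log2 fold change was -1.81 (SE 0.361, adjusted p = 0.00121). Both groups stood apart in both genes, and the H2-Eb1 values rest on 117 counts over the PBS and 32 over the LPS libraries. H2-Ob, the partner of H2-Oa, fell with it, from a mean of 63.5 to 18.1 CPM (log2 -1.81, adjusted p = 1.466e-07).

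H2-DMb1 averaged 160 ± 7.46 CPM with PBS and 206 ± 7.99 CPM with LPS (SD, n = 4 each), and all 4 LPS libraries were above all PBS libraries. The log2 difference of 0.37 (SE 0.0622, adjusted p = 0.000424) was under the fold limit. H2-DMa averaged 201 ± 6.93 and 178 ± 19.5 CPM and H2-DMb2 12.9 ± 1.20 and 10.7 ± 0.321 CPM, with log2 differences of -0.18 and -0.27 and adjusted p-values of 0.0824 and 0.0740. H2-Ab1 averaged 11.9 ± 1.02 and 10.3 ± 2.63 CPM, a log2 difference of -0.21 (adjusted p = 0.325), and H2-Aa 2.61 ± 0.793 and 1.63 ± 0.627 CPM, one of -0.67 (adjusted p = 0.116). Ciita had 23 counts with PBS and 18 with LPS and was not tested.

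**Figure D5:**
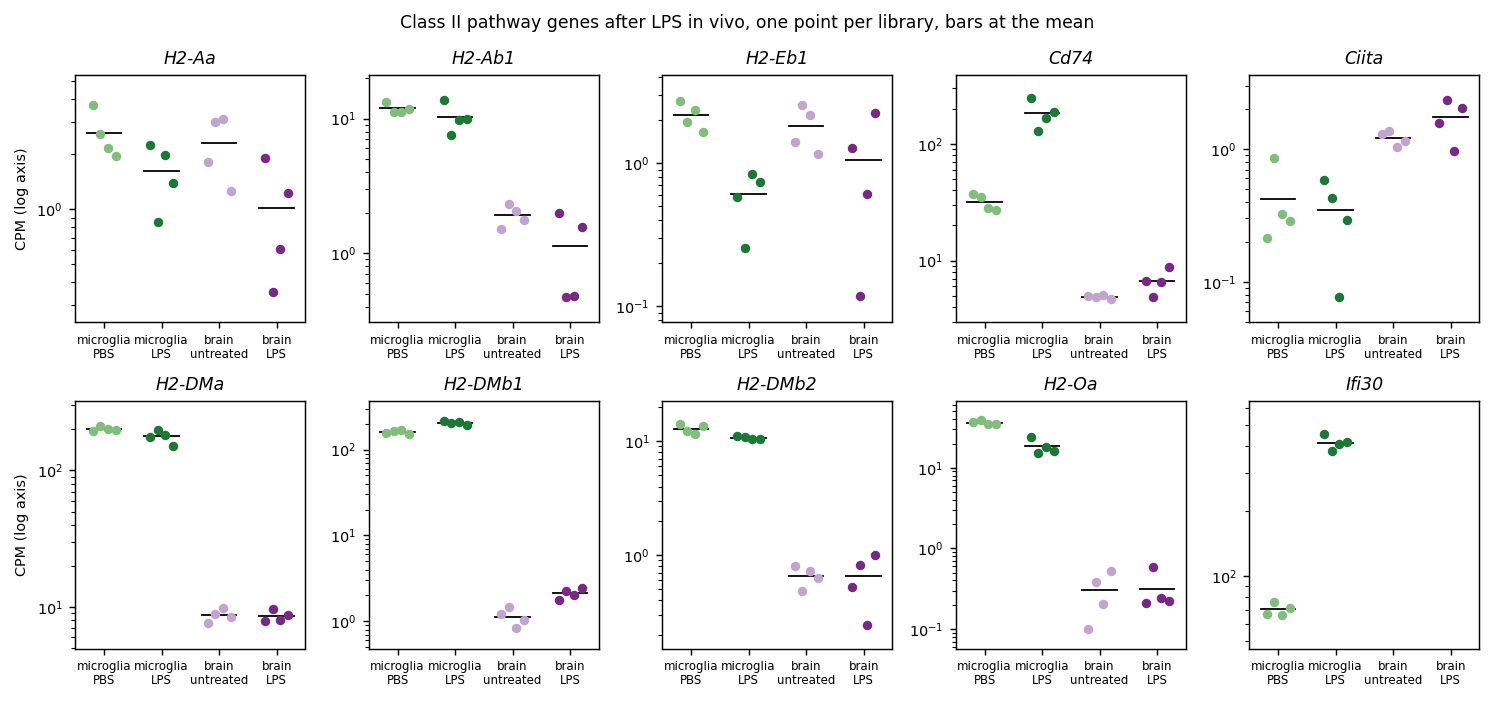
Level of each gene in each adult microglia and brain tissue library, in CPM on a logarithmic vertical axis, by group on the horizontal axis, with bars at the mean and no brain values for Ifi30. The LPS libraries of adult microglia lie above all PBS libraries for Cd74 and Ifi30 and below them for H2-Oa and H2-Eb1.

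Of the 9 tested among the 10 genes, 2 were called higher in adult microglia, against 14.4% of all genes tested, and 2 lower, against 13%. The median log2 difference was -0.21 over the genes of the set that passed the filter and 0.01 over all genes. Cd74 per H2-Ab1, as levels per kilobase, ran from 3.51 to 4.80 in the PBS libraries and from 26.1 to 28.8 in the LPS libraries. In the slice libraries the same ratio stayed at or under 3.81.

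Border macrophage genes summed to 12.6 to 17.9 CPM in the PBS libraries and to 137, 41.3, 109.7 and 144 CPM in LPS replicates 1 to 4. All 4 tested border macrophage genes were called higher. Monocyte genes summed to 11.7 to 16.3 CPM and to 92.5, 29.1, 117 and 190.7 CPM, and Fn1, which macrophages also express, made nearly all of that gain, from a mean of 0.390 to one of 102 CPM. Of the 4 tested monocyte genes, Fn1 was called higher, Ccr2 (log2 -0.81) and Chil3 (-4.24) were called lower and Plac8 was not called, with a list median of -0.24 and no member at 0 throughout. The second LPS library, lowest in both sums, was also the lowest of the 4 in Cd74, Ifi30, H2-Ab1, H2-Aa, H2-Eb1 and H2-Oa. That library was the highest of the 4 in H2-DMa, at 198.9 CPM, and not the lowest in H2-DMb1, H2-DMb2 or Ciita. B cell genes had median sums of 481 CPM with PBS and 168 CPM with LPS beside H2-Oa and H2-Ob, with Pax5 at 0 and Ighm called lower (log2 -1.55). The part of these lists in the Cd74, Ifi30 and H2-Oa results was not tested.

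Of the other pathway genes, LPS raised Ctsl (log2 1.56) among the proteases and Cd44 (2.95) among the CD74 partners in adult microglia. It lowered Ctsd (-1.03) and Rfx5 (-0.67), and the ubiquitin ligases March1 and March8 were not called.

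In whole brain tissue the class II genes were low, at means under 10 CPM, and H2-DMb1 was the only one called, higher after LPS. Counts this low leave wide errors, so that log2 differences past the fold limit were also seen in genes that missed the threshold. Cd74 lay between 4.69 and 5.06 CPM in untreated brain, and was at 6.74, 4.82, 6.51 and 8.74 CPM after LPS, so that the groups overlapped, with a log2 difference of 0.45 (SE 0.173, adjusted p = 0.117).

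H2-DMb1 was at 1.20, 1.46, 0.826 and 1.04 CPM in untreated brain and at 1.79, 2.24, 2.05 and 2.47 CPM after LPS, without overlap. The log2 fold change was 0.90 (SE 0.267, adjusted p = 0.0412), it rested on 45 and 75 counts over the libraries of each group, and the call was lost in 9 of 15 alternative settings, among them the fits without LPS replicate 2 or 4 or without any 1 of the untreated replicates (log2 0.78 to 1.05). Border macrophage genes, with Mrc1 at 0, summed to 7.22 to 11.4 CPM in untreated brain and to 17.4 to 24.5 CPM after LPS, and their part in this result was not tested. H2-DMa was level, at 7.62, 8.83, 9.81 and 8.45 CPM and at 7.90, 9.65, 8.08 and 8.74 CPM, with a log2 difference of -0.01 (adjusted p = 0.964).

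H2-Aa was at 1.81, 3.01, 3.10 and 1.25 CPM in untreated brain and at 1.90, 0.353, 0.603 and 1.23 CPM after LPS, a log2 difference of -1.13 (SE 0.433, adjusted p = 0.124) that was called without LPS replicate 1 (-1.62, adjusted p = 0.0309). H2-Ab1, H2-Eb1 and Ciita had log2 differences of -0.73, -0.75 and 0.51 with adjusted p-values of 0.273 to 0.442. Ciita shares 329 exonic bases with Dexi on the opposite strand. The part of such reads in the low Ciita counts of brain and adult microglia was not tested. H2-DMb2 and H2-Oa had 26 and 12 counts over the untreated libraries and 23 and 11 over the LPS libraries, and were not tested. Of the other pathway genes LPS raised Ctss, the protease that trims the invariant chain (log2 0.94), and the interferon-linked factors Irf1 (0.72) and Irf8 (0.68) in brain. The 1 call higher among the 7 tested of the 10 genes stands beside 2.63% of all genes tested, and the 0 calls lower in edgeR beside 0.55%. H2-Aa alone among the genes with lower values had an unadjusted p under 0.05 (0.0207), and DESeq2 and limma-voom also called 0 of them lower. The median log2 difference was -0.015 over the genes of the set that passed the filter and 0.003 over all genes.

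The LPS effect on Cd74 was larger in sorted adult microglia than in brain tissue. The difference of the log2 fold changes was 2.05 (SE 0.322, adjusted p = 0.0001284, edgeR's quasi-likelihood test of the interaction over the 16 in vivo samples). It was the only call among the 9 tested of the 10 genes, against 9.1% of 16676 genes called higher and 10.6% called lower. The other tested genes of the set had adjusted p-values of 0.114 to 0.71. The tissue, the library kit and the kind of control (PBS or no injection) differ together between the 2 experiments and cannot be told apart. Among the other pathway genes, Cd44 (2.80) and Ctsl (1.16) had larger log2 effects in adult microglia than in brain, and Irf8 (-1.11), Ctsd (-0.99) and Rfx5 (-0.61) smaller or more negative ones.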

How the data were processed

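Microglia were sequenced from SMART-Seq v4 and Nextera XT libraries and brain tissue from TruSeq mRNA libraries. Per the submitters' processing notes, slice reads were aligned to mm10 with STAR 2.7.0a and counted with featureCounts of Subread 1.6.4; the sources used here give no aligner or counter for adult microglia and brain tissue, and no strand setting. The authors deposited whole read counts per gene for slice microglia. For adult microglia and brain tissue the authors deposited expected counts, which were rounded. For brain tissue, 92 deposited entries name no gene and hold 0 counts, and they stayed out of library sizes and tests.

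Counts were analysed in R 4.3.3 with edgeR 4.0.16: filterByExpr (minimum count 10, minimum total 15), TMM factors and the robust quasi-likelihood F test. The 29 slice libraries were fitted together, and adult microglia and brain tissue alone; the interaction used the 16 in vivo samples. Calls needed a Benjamini-Hochberg adjusted p under 0.05 over all genes tested and a fold change over 1.5. The fit was tested on simulated counts. Alternatives were total-count and DESeq2 scaling, other filters, DESeq2 1.42.0, limma-voom (limma 3.58.1), title code and replicate terms, code subsets, the compared groups alone and leaving out each library. Libraries of a group differed beyond sampling noise, with none identical. By the rule for names, all 10 genes were named, and called genes of the pathway lists (promoter factors, interferon gamma axis, proteases, ubiquitin ligases, CD74 partners, other class II locus genes) could be, though some items are not reported here. Marker lists covered microglia, border macrophages, monocytes, dendritic cells, B cells, T and NK cells and neutrophils. T and NK cell genes were near 0, and neutrophil genes summed to a median of 31.6 CPM in adult microglia with PBS and 2.85 with LPS. In slice microglia their median sums were 1.88 CPM in medium, 8.57 with TNF and 10.4 with GM-CSF, with Ly6g at 0 in each group. Of 3 tested there, 2 were called higher and 0 lower with TNF, against 9.1% and 11.7% of all genes tested. With GM-CSF 0 were called, against 4.84% higher and 5.96% lower. The members and lists were chosen with earlier results of these data known. Sequences came from RefSeq promoter tables (GRCm38.p6) and gene models from GENCODE M21.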

Additional observations from a re-analysis of the deposited data

Results flagged for a closer look

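In 4 groups 1 library lay far from the others in 1 gene by Dixon's gap test, which chance alone would give in about 1 in 20 of the 57 combinations of gene and group tested. The TNF group, with 11 libraries, was not part of that test. Ciita was at 1.165 CPM in medium replicate 5 of the slice microglia and at 0 in the other medium libraries, a value that is 8 counts. Ifi30 was at 158 CPM in GM-CSF replicate 9, below the rest of its group, which reached 206.6 CPM. Ciita was at 0.861 CPM in PBS replicate 2 of the adult microglia, against 0.215 to 0.322 CPM in the other 3. H2-Oa was at 0.588 CPM in brain LPS replicate 2, where the 4 LPS libraries together held 11 counts.

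The LPS effect on Cd74 differed between adult microglia and brain tissue by 2.05 on the log2 scale, with a log2 fold change of 2.52 in the former and 0.45 in the latter (edgeR's quasi-likelihood test of the interaction, adjusted p = 0.0001284).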

How the results depend on the processing

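Against medium, the counts of class II genes called moved as follows. For TNF, the 1 gene called higher became 2 with no fold limit, and the 1 called lower became 3 with total-count scaling, 3 with DESeq2, 2 with no filter on low counts, 2 with the title code as a term, 0 in codes 1A and 1B alone and 1 to 3 with single libraries left out. For GM-CSF, the 2 called higher became 4 with no fold limit, and the 1 called lower (H2-Oa) became 2 with no fold limit, 0 with total-count scaling, no filter, codes 1A and 1B alone, codes 2A and 2B alone or only the 2 groups in the fit, and 0 to 2 with single libraries left out. In adult microglia the 2 called lower became 1 at a minimum count of 30. In brain the 1 called higher became 0 with no filter, a minimum count of 30 or DESeq2, and 0 to 1 with single libraries left out; the 0 called lower became 0 to 1, and H2-Aa was called at -1.62 (adjusted p = 0.0309) without LPS replicate 1.

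With the replicate number as a block, 2 genes were called lower with TNF, 0 lower with GM-CSF and 0 higher in brain, and no other count moved beyond 1.5 times. The numbers share no stated pairing, and same-numbered medium and TNF libraries correlated at 0.041 to 0.184, medium and GM-CSF libraries at 0.017 to 0.111 and in vivo libraries at -0.078 to 0.043. Of 9 medium libraries, 4 correlated best with their own number in TNF.

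Directions turned for 3 genes, in comparisons where none of them was called. H2-DMb1 for TNF against GM-CSF was 0.0117 with the block and 0.0035 in codes 1A and 1B. H2-DMa in brain was 0.0019 with total-count scaling and ran from -0.0761 to 0.0481 with single libraries left out (0.0249 without LPS replicate 1, 0.0115 without LPS replicate 3, 0.0481 without untreated replicate 3). H2-DMb2 in the interaction ran from -0.527 to 0.0258 (without brain LPS replicate 4). With no filter, Ciita was called lower with TNF at -3.07 (adjusted p = 0.0306), which rests on 8 counts in 1 medium library. Counts this low limit H2-Aa, H2-Eb1, Ciita and, in brain, H2-DMb1, H2-DMb2 and H2-Oa. The calls on Cd74, H2-DMa, H2-DMb2 and H2-Ab1 between TNF and GM-CSF stood in each alternative run.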

Other observations

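Across the 29 slice libraries, the genes whose log2 levels were most like the mean of H2-Aa, H2-Ab1, H2-Eb1 and Cd74 were Atp9a (Pearson's r of 0.745), Stom (0.733), Derl2 (0.722), Slc30a1 (0.716), Ly6a (0.71), Lox (0.706), Fzr1 (0.7), Ciart (0.698), Atp1b3 (0.691) and Zfp263 (0.687), and H2-DMa and H2-DMb2 had r of -0.536 and -0.58 with it. After the treatment means were subtracted they were Fzr1 (0.677), Nodal, Psap, Szrd1, Acadsb, Pot1a, Slc30a1, Ttc8, Mcoln3 and Tmed9 (0.626). That mean holds H2-Aa and H2-Eb1, which were near 0, so 2 other scores were added after the values were seen. The mean of H2-Ab1 and Cd74 was most like Smox (0.9), Lgals3bp (0.884) and Cst7 (0.873). The mean of H2-DMa and H2-DMb2 was most like B4galnt1 (0.915), Tmem65 (0.911) and Serp1 (0.902), with Pparg at 0.886. These r describe libraries that share treatment, depth and title code.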
